A study of Mus musculus with 10 samples.

Results

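Genes of glucose transport, glycolysis, lactate dehydrogenase and lactate transport were followed in whole testes of 10 day old mice. Genes of pyruvate dehydrogenase, its kinases and the pentose phosphate pathway were followed with them. The set was defined by name as 37 genes, and members were the probe sets whose platform annotation named 1 of these genes alone. This gave 62 of the 22690 probe sets on the array, covering 33 of the 37 genes, out of 12393 named genes in all. Gapdh, Gpi1, Eno1 and G6pdx had no probe set of this kind and were not analysed here. Of the 33 genes, 28 had at least 1 probe set above the filter on dim signals and were tested, with 51 probe sets, while Slc2a4, Slc16a7, Pgam2, Eno2 and Pdk4 did not pass it.

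Both groups were 10 days old. SCARKO mice lack the androgen response in Sertoli cells alone, a deletion made with Cre. Controls carried AMHCre, per the labels, a transgene driven by the promoter of a Sertoli cell gene. Each of the 10 arrays held whole testis RNA pooled from 1 testis of each of 3 mice, and control and SCARKO pools of littermates formed 5 pairs. The labels used here name no strain.

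Sertoli cells take up glucose through facilitative transporters of the SLC2 family, break it down by glycolysis and pass much of the pyruvate to lactate dehydrogenase. Lactate leaves the cell through proton-coupled monocarboxylate transporters of the SLC16 family, which need the chaperone basigin or embigin to reach the membrane. In the testis this lactate is known as a fuel of meiotic and postmeiotic germ cells.

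Titles and descriptions of the arrays disagreed for the 8 arrays of pairs 1 to 4, for which the description names the other genotype. Groups were taken from the titles, and every direction given here rests on them. Signals had a trimmed mean of 100.03 on all 10 arrays and medians of 36.4 to 37.6. As a measure of RNA integrity, the Gapdh array controls had 3′ over 5′ ratios of 0.611 to 0.64 in control pools and 0.618 to 0.657 in SCARKO pools. Genes marking the cells of the testis were present, with 13 of 13 Sertoli cell markers on the array above the filter, 10 of 10 spermatogonial, 10 of 11 meiotic, 6 of 6 Leydig cell and 8 of 8 myoid markers. None of the 10 skeletal muscle, 6 fat or epididymal and 3 erythroid markers on the array reached it, and no muscle marker had a signal above 20.1 on any array. The erythroid marker Alas2 lay just under the filter, with a mean log2 signal of 4.24 and signals of up to 28.7.

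Few genes of the set passed the test between SCARKO and control testes. Of the 28 tested genes, each represented by its brightest probe set, 2 fell and none rose at an adjusted p under 0.05 (limma, Benjamini-Hochberg over all probe sets), namely Slc16a3 and Ldhb. Among all 7973 genes 5.69% were called, 3.52% as lower and 2.17% as higher in SCARKO. The share of 2 in 28 was close to that background and is not a result about the set. Slc2a1 and Slc2a3 each had a second, dimmer probe set that fell, so that 4 of the 28 genes fell on at least 1 probe set, against 4.18% of all genes (6.71% in either direction). By probe set, 7 of 51 fell and none rose, against 5.19% of all probe sets called and 3.26% as lower, and 4 of those 7 belong to Ldhb. The median log2 fold change (SCARKO minus control) was -0.026, beside 0.015 over all genes, and 15 of the 28 values (53.6%) were negative, against 45.0% of all genes. An unadjusted p under 0.05 was found for 12 of the 28 genes, against 21.7% of all genes. The median size of change, without sign, was 0.11 on the log2 scale against 0.084 over all genes, and 7 of the 28 exceeded 0.2, against 15.3% of all genes. For 25 of the 28 genes the 95% interval of the log2 fold change, not adjusted for the number of genes, lay within 0.5 of 0. All 7 of these probe set calls ended when dim probe sets were not left out (adjusted p = 0.075 to 0.205, limma), and those of Slc16a3 and Ldhb ended without the intensity trend (0.050 to 0.097). In RNA of whole testes, fewer cells of a type and less RNA per cell cannot be told apart.

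**Figure D1:**
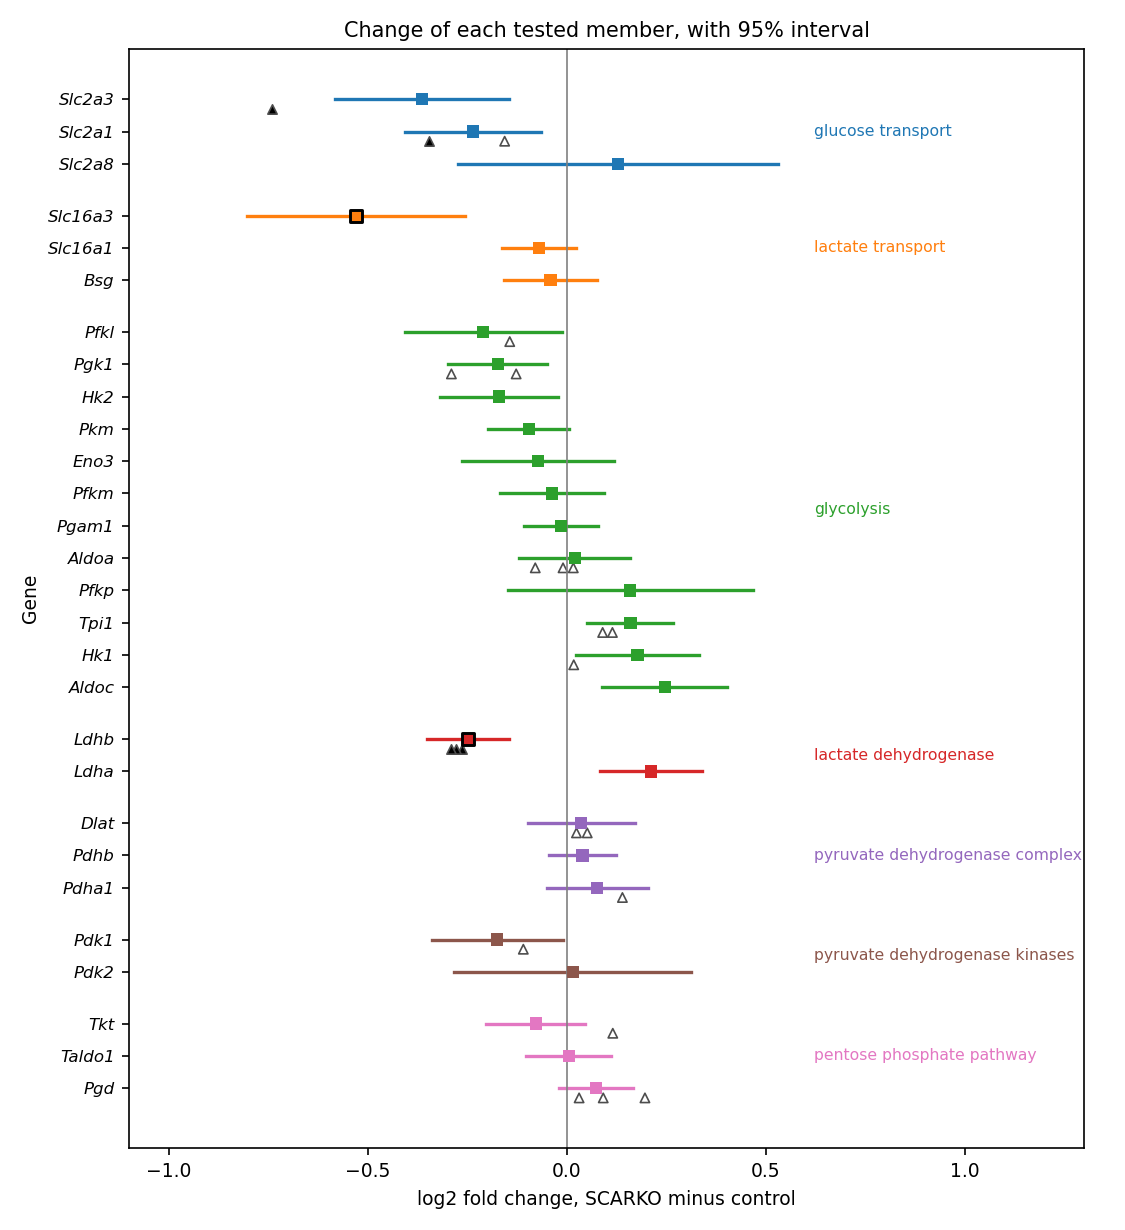
Log2 fold change of each of the 28 tested genes, SCARKO minus control (x axis), with genes by role (y axis); squares are the brightest probe set of a gene with its 95% interval, outlined in black where the adjusted p was under 0.05, and triangles are its other probe sets, filled in black where called. Slc16a3 at -0.53 and Ldhb at -0.25 are the outlined squares, and no glycolytic enzyme is outlined or has a filled triangle.

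Among the glucose transporters, the signals of Slc2a3 and Slc2a1 leaned lower in SCARKO testes. Slc2a3 encodes GLUT3, a high-affinity glucose transporter. Its brightest probe set gave control signals of 120.0, 79.2, 112.9, 102.1 and 120.6 in pairs 1 to 5 and SCARKO signals of 81.8, 84.7, 79.9, 86.9 and 77.9. Control pools were higher in 4 of 5 pairs, and in pair 2 the control pool was the low one, so that the groups overlapped. The log2 fold change was -0.36 (SE 0.10, 95% interval -0.58 to -0.15), which did not pass (adjusted p = 0.060, limma). The second probe set gave control signals of 35.3, 24.5, 37.7, 36.1 and 46.1 and SCARKO signals of 18.5, 20.7, 21.5, 22.7 and 22.3. Like the brightest one, this probe set is of a kind that can take signal from related transcripts. Every SCARKO pool lay below every control pool, and Slc2a3 fell by 0.74 on the log2 scale (SE 0.13, adjusted p = 0.0079, limma). SCARKO signals of this probe set were near the signal of 19.3 under which probe sets were left out, and with 16 added before log2 the change was -0.47. Its call held whichever pair was left out, with adjusted p from 0.0025 to 0.041 (limma). The remaining 2 probe sets of Slc2a3 were under the filter, with means of 12.1 and 9.2 in control pools and 9.58 and 7.86 in SCARKO pools.

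Slc2a1 encodes GLUT1, the widespread basal glucose transporter. Control signals of its brightest probe set were 106.8, 117.8, 132.7, 138.7 and 160.4 in pairs 1 to 5, and SCARKO signals were 109.3, 111.5, 98.6, 104.7 and 129.8. The difference was near 0 in pairs 1 and 2 and clear in pairs 3 to 5. The log2 fold change was -0.24 (SE 0.078, 95% interval -0.41 to -0.066; adjusted p = 0.11, limma). Its second probe set read 75.2, 63.3, 79.9, 81.3 and 75.3 in control pools and 53.0, 55.1, 57.3, 63.4 and 65.8 in SCARKO pools, lower in all 5 pairs with a small overlap between the groups. On it Slc2a1 fell by 0.35 on the log2 scale (SE 0.079, adjusted p = 0.028, limma). The third probe set had a log2 fold change of -0.16 and did not pass (adjusted p = 0.39, limma). The call of the second probe set ended without pair 1, 3, 4 or 5 (adjusted p = 0.095, 0.12, 0.076 and 0.053) and without the littermate block (0.057).

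The other glucose transporters gave no call. Slc2a8, which encodes the intracellular transporter GLUT8, ranged from 24.0 to 56.6 in control pools and from 32.2 to 52.1 in SCARKO pools. Its ratio was lower in 3 pairs and higher in 2, with the widest swing in pair 4, and its log2 fold change was 0.13 (95% interval -0.27 to 0.53; adjusted p = 0.74, limma). Slc2a4, which encodes the insulin-responsive transporter GLUT4 of muscle and fat, had signals of at most 20.3 on its 2 probe sets and was not tested.

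Slc16a3 showed the largest change of the set on brightest probe sets. It encodes MCT4, a monocarboxylate transporter typical of glycolytic cells that export lactate. Its control signals were 72.2, 51.0, 78.2, 58.6 and 94.1 in pairs 1 to 5, and its SCARKO signals were 59.4, 36.6, 44.2, 55.9 and 47.0. The SCARKO pool was the lower one in all 5 pairs, by little in pair 4 and most in pairs 3 and 5, and the groups overlapped. Mean signals were 70.8 ± 16.9 in control and 48.6 ± 9.16 in SCARKO pools (SD, n = 5), and Slc16a3 fell by 0.53 on the log2 scale (SE 0.12, adjusted p = 0.033, limma), which is 1.445-fold lower. The call was not secure: adjusted p was 0.054, 0.055, 0.14 and 0.12 without pair 1, 2, 3 or 5, and 0.11 without the littermate block.

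The other monocarboxylate transport genes did not pass. Slc16a1 encodes MCT1, which carries lactate in either direction. It ranged from 536.3 to 576.5 in control and from 503.2 to 560.5 in SCARKO pools, with a log2 fold change of -0.071 (95% interval -0.16 to 0.023; adjusted p = 0.38, limma). Bsg encodes basigin, the chaperone of both MCT1 and MCT4. Its signals ran from 601.0 to 876.7 in control and from 641.6 to 821.3 in SCARKO pools, with a log2 fold change of -0.042 (95% interval -0.16 to 0.075; adjusted p = 0.71, limma). Emb, which encodes the related chaperone embigin and was listed among the other pathway genes, had log2 fold changes of -0.48 and -0.49 on its 2 probe sets, lower in all 5 pairs, and lay just outside the threshold (adjusted p = 0.050 on the brighter one, limma). Slc16a7, the gene of MCT2, had signals of at most 5.4 and was not tested.

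**Figure D2:**
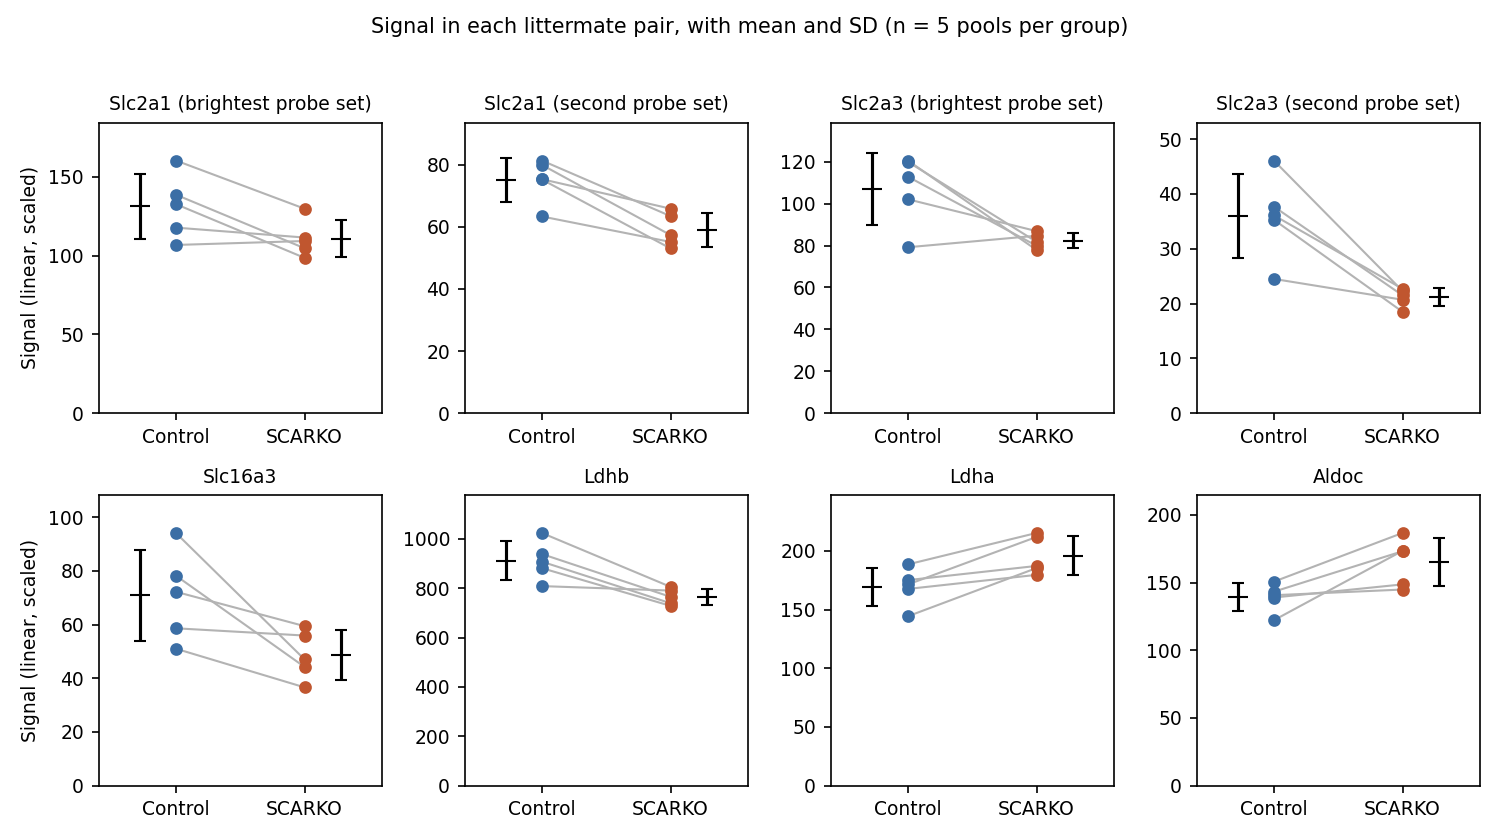
Signal (y axis, linear scale from 0) in the control and SCARKO pool of each littermate pair, with grey lines joining the pools of a pair and black bars giving mean and SD (n = 5 per group), for 8 probe sets of 6 genes. Every SCARKO point of Ldhb and of the second Slc2a3 probe set lies below every control point, whereas Ldha and Aldoc are higher in SCARKO in all 5 pairs with overlapping groups.

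Lactate dehydrogenase is a tetramer of LDHA and LDHB subunits, of which LDHA-rich forms favour making lactate from pyruvate and LDHB-rich forms favour the reverse. Ldhb was lower in SCARKO on every one of its 4 probe sets. On its brightest probe set, control signals were 908.1, 809.0, 939.0, 881.8 and 1024.4 in pairs 1 to 5, and SCARKO signals were 739.5, 790.8, 765.4, 728.8 and 805.9. All SCARKO pools lay below all control pools, with the smallest step in pair 2. Among all genes, 2.78% had SCARKO ranges wholly below control and 2.47% wholly above, which no member had on its brightest probe set. Ldhb fell by 0.25 on the log2 scale (SE 0.047, adjusted p = 0.011, limma), from 912.5 ± 78.9 to 766 ± 32.8 (SD, n = 5), so that it fell by 15.85% on the fitted scale. The other 3 probe sets of Ldhb fell by 0.26, 0.28 and 0.29 (adjusted p = 0.0045, 0.0070 and 0.0036, limma), also without overlap of the groups. The brightest probe set of Ldhb and the one that fell by 0.29 are of a kind that can take signal from related transcripts. Probe sets of a gene share the RNA and part of the transcript, so they are not independent replicates. The call of the brightest one ended without pair 3 (adjusted p = 0.056) or 5 (0.052), while those of the other 3 held whichever pair was left out, with adjusted p from 0.0016 to 0.035 (limma).

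Ldha pointed the other way without passing. Its control signals were 171.4, 188.5, 144.3, 175.1 and 167.6, and its SCARKO signals were 211.9, 215.3, 185.4, 187.2 and 179.6. SCARKO pools were higher in all 5 pairs, with overlapping groups. The log2 fold change was 0.21 (SE 0.059, 95% interval 0.083 to 0.34; adjusted p = 0.064, limma). The difference between the change of Ldha and that of Ldhb was 0.46 ± 0.175 on the log2 scale (SD, 5 pairs), positive in each pair, from 0.225 to 0.657. Because Ldha was higher and Ldhb lower in all 5 pairs, this difference had to be positive in each. An exact two-sided sign-flip test over the 5 pairs could then only give p = 0.0625, the smallest that 5 pairs allow. Its outcome was fixed by the choice of genes and adds no support. The p was 0.125 after adjustment over the 3 isoform contrasts computed, all chosen after the values were seen. The other contrasts were Slc16a3 against Slc16a1 (-0.46 ± 0.377, SD, exact p = 0.125) and Hk1 against Hk2 (0.348 ± 0.295, SD, exact p = 0.125).

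The bases before the start site of Slc16a3, Slc2a1, Ldhb and Ldha are shown because the first 3 were called on at least 1 probe set and Ldha pointed the other way. Slc2a3 was also called on 1 probe set, but no promoter window was available for it. Each run gives the 250 bases before the annotated start, 5′ to 3′ on the strand of the gene, from RefSeq on build GRCm38.p6, with matches to ACGTG on either strand in capitals. ACGTG is a common form of the core of the hypoxia response element through which HIF acts on many glycolytic genes. Other forms of this core, such as GCGTG, were not marked or counted. The windows lie at chr11:120948817-120949066 (+ strand) for Slc16a3, chr4:119108495-119108744 (+ strand) for Slc2a1, chr6:142507958-142508207 (- strand) for Ldhb and chr7:46845554-46845803 (+ strand) for 1 of 2 listed starts of Ldha.
Slc16a3: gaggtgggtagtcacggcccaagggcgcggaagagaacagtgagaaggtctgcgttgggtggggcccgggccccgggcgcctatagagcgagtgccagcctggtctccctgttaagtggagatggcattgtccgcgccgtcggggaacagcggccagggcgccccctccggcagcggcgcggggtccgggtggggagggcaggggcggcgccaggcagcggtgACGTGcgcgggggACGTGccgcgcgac
Slc2a1: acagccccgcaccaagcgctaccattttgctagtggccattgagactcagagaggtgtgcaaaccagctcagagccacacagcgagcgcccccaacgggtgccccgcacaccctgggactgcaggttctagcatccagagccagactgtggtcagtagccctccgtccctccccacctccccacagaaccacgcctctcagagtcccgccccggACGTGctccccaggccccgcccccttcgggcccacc
Ldhb: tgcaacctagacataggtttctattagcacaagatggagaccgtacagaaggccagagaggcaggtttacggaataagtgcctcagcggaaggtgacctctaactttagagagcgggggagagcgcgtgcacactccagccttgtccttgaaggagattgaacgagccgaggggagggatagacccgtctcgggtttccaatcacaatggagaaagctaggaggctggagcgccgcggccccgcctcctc
Ldha: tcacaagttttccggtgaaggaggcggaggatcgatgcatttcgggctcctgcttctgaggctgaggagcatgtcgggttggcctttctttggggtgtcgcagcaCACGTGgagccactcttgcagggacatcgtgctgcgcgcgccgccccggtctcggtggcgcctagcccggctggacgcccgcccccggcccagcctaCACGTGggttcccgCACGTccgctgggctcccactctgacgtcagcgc

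Slc16a3 had 2 matches, 27 and 14 bases before its start, and Slc2a1 had 1, 36 bases before it. Ldha had 5 matches, of which 2 pairs overlap as CACGTG on both strands, while the Ldhb window held no ACGTG. Of the 37 genes, 33 had a window of 300 bases (250 before to 50 after the start) in the table, and 16 of them (48.5%) held ACGTG on either strand, against 21.8% of 27025 genes. By window, 38.3% of 47 held it, against 20.9% of 21263 windows of protein-coding genes. The GC box CCGCCC stood in 51.1% of the windows, against 46.2% of those of protein-coding genes. The palindrome bound by steroid receptors stood in none, against 0.00941% of protein-coding windows. It is too rare for 47 windows to show a difference in its share. AGAACA alone, which is part of the palindrome, stood in 21.3% against 16.2%. These are matches of letters and not sites of binding.

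The glycolytic enzymes from hexokinase to pyruvate kinase gave no call. Limma called 0 of 12 tested genes on any of 21 probe sets. Among all genes 6.71% were called on at least 1, so this count is not a result about these enzymes. On brightest probe sets 6 of the 12 had an unadjusted p under 0.05, against 21.7% of all genes. These 6 split evenly in direction. Aldoc, which encodes the aldolase typical of brain, had the largest value. Its signals were 143.3, 140.7, 122.2, 139.0 and 150.7 in control and 173.2, 144.9, 173.5, 148.7 and 186.7 in SCARKO pools, higher in each pair and most in pair 3. The log2 fold change was 0.25 (SE 0.071; adjusted p = 0.075, limma). Tpi1, the triosephosphate isomerase gene, was also higher in all 5 pairs, at 0.16 (SE 0.049, adjusted p = 0.093, limma), with 0.090 and 0.11 on its other 2 probe sets. Hk1, the widespread hexokinase, stood at 0.18 (adjusted p = 0.18, limma), with 0.017 on its other probe set.

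The lower-leaning enzymes were Pfkl, Pgk1 and Hk2. Hk2, the inducible hexokinase, had control signals of 420.3, 337.8, 373.4, 414.7 and 465.3 and SCARKO signals of 367.6, 366.6, 354.9, 340.0 and 347.6. SCARKO pools kept within a narrow band while control pools spread widely, and pair 2 went against the other 4. The log2 fold change of Hk2 was -0.17 (SE 0.068; adjusted p = 0.18, limma), and -0.11 without pair 5. Pfkl, the liver-type phosphofructokinase gene, stood at -0.21 (SE 0.090, adjusted p = 0.21, limma), with -0.14 on its other probe set and the largest step in pair 3, without which the value was -0.11. Pgk1, the X-linked phosphoglycerate kinase gene, stood at -0.17 (SE 0.057, adjusted p = 0.11, limma), with -0.13 and -0.29 on its other 2 probe sets, the latter with a mean of 45.0 in control pools.

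The remaining 6 glycolytic genes gave values closer to 0 or wide intervals. Pgam1, a phosphoglycerate mutase gene, had a log2 fold change of -0.015 (95% interval -0.11 to 0.078), with SCARKO signals of 575.3 to 596.2 in 4 pools and 663 in pair 2. Pkm, the pyruvate kinase gene, stood at -0.096 (95% interval -0.20 to 0.0057). Aldoa, the main aldolase gene, stood at 0.019 on its brightest probe set and between -0.080 and 0.016 on 3 others, so its probe sets differed in sign. Pfkm was at -0.037, Eno3, the muscle-type enolase gene, at -0.073, and Pfkp, near the filter with control signals of 17.5 to 30.8, at 0.16. Limma gave these genes adjusted p of 0.27 to 0.90. Pgam2 and Eno2, the muscle mutase and the neuronal enolase genes, had signals of at most 5.4 and 7.5 and were not tested.

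**Figure D3:**
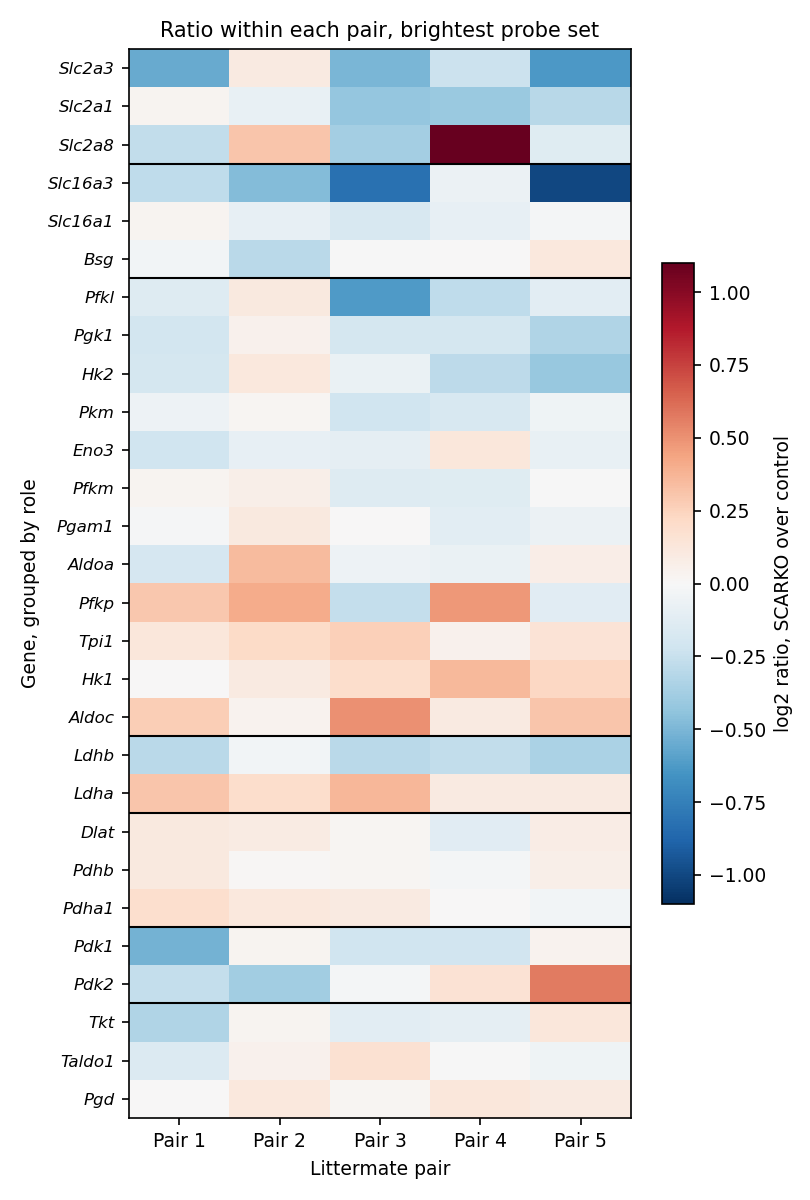
Log2 ratio of SCARKO over control (colour, blue lower and red higher) for the brightest probe set of the 28 tested genes (y axis, grouped by role with black lines between groups) in each of the 5 littermate pairs (x axis). Rows of Slc16a3 and Ldhb are blue and rows of Ldha, Aldoc and Tpi1 are red in all 5 pairs, and the column of pair 2 holds fewer blue cells than the others.

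Genes that route pyruvate into mitochondria gave no call. Pdha1 and Pdhb encode the subunits of the first enzyme of the pyruvate dehydrogenase complex and Dlat encodes its acetyltransferase. Of these 3, limma called 0, against 5.69% of all genes, and 0 had an unadjusted p under 0.05, against 21.7%. Pdha1 went from 136 ± 4.90 to 144 ± 8.85 (SD, n = 5), with a log2 fold change of 0.076 (95% interval -0.051 to 0.20; adjusted p = 0.50, limma). Pdhb stood at 0.039 (95% interval -0.045 to 0.12) and Dlat at 0.036 (95% interval -0.097 to 0.17). Pdha1 is X-linked like Pgk1, and these 2 X-linked members had values of opposite sign, neither past the threshold.

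The pyruvate dehydrogenase kinases switch that complex off. Pdk1 had control signals of 241.0, 273.7, 299.8, 287.2 and 321.1 and SCARKO signals of 168.1, 280.2, 258.3, 248.1 and 329.3. The SCARKO pool of pair 1 was the lowest of all 10, and pairs 2 and 5 showed almost no difference. Its log2 fold change was -0.18 (SE 0.075; adjusted p = 0.21, limma), and -0.089 without pair 1. Pdk2 stood at 0.014 (95% interval -0.28 to 0.31; adjusted p = 0.97, limma), and Pdk4, under the filter, had signals of 7.7 to 15.9.

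The pentose phosphate pathway makes NADPH and ribose phosphates from glucose 6-phosphate. Limma called 0 of its 3 tested genes on any of 7 probe sets, with 0 of the brightest at an unadjusted p under 0.05. Among all genes 6.71% were called on at least 1 probe set, and 21.7% had an unadjusted p under 0.05. Pgd, the phosphogluconate dehydrogenase gene, was higher in all 5 pairs by small steps, at 0.072 (95% interval -0.021 to 0.17; adjusted p = 0.37, limma), and its other 3 probe sets ranged from 0.030 to 0.20. The transketolase gene Tkt differed in sign between its probe sets, -0.079 on the brightest and 0.12 on the other, neither past the threshold. Taldo1, the transaldolase gene, stood at 0.0041 (95% interval -0.10 to 0.11; adjusted p = 0.97, limma).

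The values of the set are given here by litter pair, and differences between pairs in the set as a whole were not tested. On brightest probe sets, 16, 7, 18, 17 and 16 of the 28 genes were lower in the SCARKO pool in pairs 1 to 5, with medians of -0.042, 0.056, -0.088, -0.073 and -0.023 on the log2 scale. Of all genes, 48.4%, 47.5%, 47.8%, 44.0% and 46.6% were lower in these pairs. All genes had medians of 0.0070, 0.0090, 0.010, 0.027 and 0.015 in the same order. Pair 2 was thus the 1 pair with a median of the set above 0, and without it 5 members were called, Slc2a3, Ldhb, Hk2 and Pgk1 as lower and Aldoc as higher, against 5.96% of all genes. Without pair 1 the call of Ldhb stood alone (3.34% of all genes), and without pair 4 both calls held (3.93%). Without pair 3 or pair 5 limma called 0 members, against 2.43% and 2.71% of all genes called. In these fits 9 and 10 members had an unadjusted p under 0.05, and the share of all genes at that level was not computed. Every pair had the same sign for 7 of the 28 genes, against 19.7% of all genes: Slc16a3 and Ldhb lower, and Ldha, Aldoc, Tpi1, Hk1 and Pgd higher.

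Levels were also compared between litters. Limma's F test over the pair terms called 0 of the 28 genes, against 0.452% of all genes. An unadjusted p under 0.05 was found for 3 of the 28, against 1314 of all 7973 genes. Bsg (adjusted p = 0.088) and Pdk1 (0.092) came closest, and without pair 2 Bsg was called (0.034). Litter and array handling share the pair number and cannot be told apart. The median coefficient of variation of the set was 8.99% in control and 7.28% in SCARKO pools, against 9.1% and 8.05% over all genes. It was lower in SCARKO for 18 of the 28 genes (64.3%), against 59.4% of all genes.

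**Figure D4:**
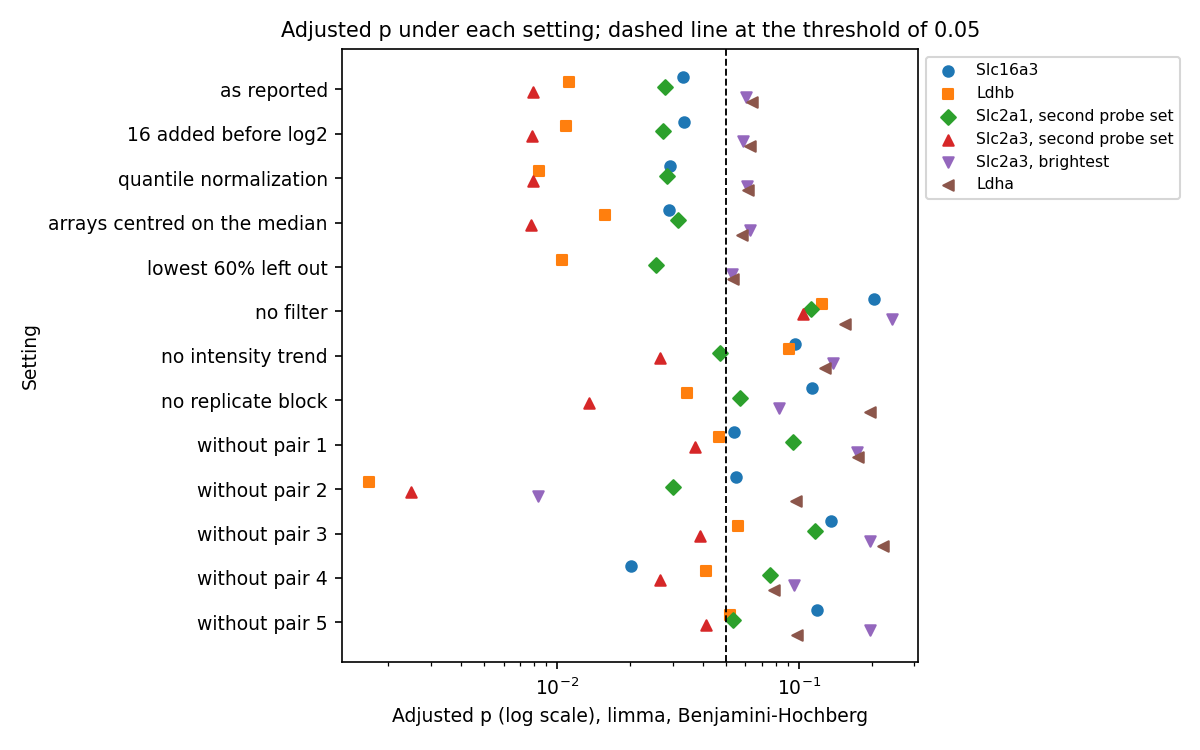
Adjusted p (x axis, log scale) of 6 probe sets under the reported fit and each other setting (y axis), with the threshold of 0.05 as a dashed line. The second Slc2a3 probe set lies left of the line in every setting shown that tested it except without the filter on dim probe sets (0.10); the stricter filter left it out, and groups from the descriptions are not plotted. Slc16a3 crosses it without pair 1, 2, 3 or 5, and without the filter, the intensity trend or the littermate block. The stricter filter left out Slc16a3 as well.

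Of 96 further genes of sugar, lactate, pyruvate and glycogen metabolism, 65 were on the array and 40 were tested. On brightest probe sets 1 fell and 3 rose, against 5.69% called among all genes. Gpd1, the glycerol 3-phosphate dehydrogenase gene that draws dihydroxyacetone phosphate out of glycolysis, had means of 55.7 ± 19.6 in control and 16.6 ± 3.12 in SCARKO pools (SD, n = 5) and fell by 1.67 on the log2 scale (adjusted p = 0.0028, limma). With 16 added before log2 its change was -1.09. Gyg, which encodes glycogenin, the primer of glycogen synthesis, had means of 48.0 ± 4.09 and 68.5 ± 3.31 (SD, n = 5) and rose by 0.52 (adjusted p = 0.0049, limma), with every SCARKO pool (63.8 to 72.7) above every control pool (44.0 to 54.3). Me1, the cytosolic malic enzyme gene, which makes pyruvate and NADPH, rose by 0.21 (adjusted p = 0.018, limma), also without overlap of the groups. Pgm2, a phosphoglucomutase gene, rose by 0.35 (adjusted p = 0.040, limma).

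By group, none of 3 tested transport genes and 1 of 6 glycolytic isozyme and regulator genes (Gpd1) were called. So were 1 of 8 genes of pyruvate use (Me1), 1 of 12 of sugar interconversion (Pgm2) and 1 of 11 of glycogen metabolism (Gyg). Among all genes 5.69% were called. Minpp1, a phosphatase gene of the isozyme and regulator list, stood at -0.21 on its brightest probe set (adjusted p = 0.076, limma). It fell by 0.30 on its second (adjusted p = 0.021, limma). With it, 5 of the 40 genes were called on at least 1 probe set, against 6.71% of all genes. Minpp1 was chosen after its values were seen. Next in these lists stood Pfkfb3, whose enzyme makes the activator of phosphofructokinase, at -0.39 (adjusted p = 0.063, limma), H6pd at 0.29 (0.14), Me2 at 0.11 (0.20), Gbe1 at 0.29 (0.098) and Mpc1, a mitochondrial pyruvate carrier gene, at -0.057 (0.67). The spermatogenic isozyme genes Ldhc, Pgk2 and Gapdhs, known from later germ cells, did not pass the filter, with control means of at most 7.66. The call of Pgm2 ended whichever pair was left out, with adjusted p from 0.057 to 0.14 (limma), and when littermates were not paired in the fit (0.094), and that of Me1 without pair 4 (0.054) or 5 (0.064) or without the intensity trend (0.115). The calls of Gpd1, Gyg, Me1 and Pgm2 all ended when dim probe sets were not left out (0.069 to 0.13).

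No call was made among 17 tested regulators of glycolytic enzymes with limma, against 5.69% of all genes. An unadjusted p under 0.05 was found for 1 of them, against 21.7% of all genes. Irs1, an adaptor of the insulin receptor, stood at 0.33 (adjusted p = 0.065, limma) and Mlx at 0.15 (0.33). Hif1a, the oxygen-regulated subunit of HIF, stood at 0.036 (adjusted p = 0.68). Of 7 tested hypoxia-response genes outside glycolysis 1 was called, against 5.69% of all genes. This was Ddit4, which fell by 0.33 (adjusted p = 0.041, limma). Its call ended without pair 1, 3, 4 or 5 (0.061 to 0.16) and without the littermate block (0.22). P4ha1 stood at -0.22 (0.13).

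Markers of cell types were read beside these genes by their brightest probe sets. Among all genes 5.69% were called, 3.52% as lower and 2.17% as higher, and 21.7% had an unadjusted p under 0.05. Of 10 tested meiotic markers 3 fell, Stag3, Hspa2 and Tex15, with a median log2 fold change of -0.25, and their summed signal was 2567 to 3814 in control and 2301 to 2992 in SCARKO pools. Of 13 Sertoli cell markers 3 fell, Cldn11, Nr0b1 and Gata1, and 1 rose, Fshr, with a median of -0.048 and summed signals of 7721 to 8390 and 7422 to 7919. Limma called 0 of 10 spermatogonial, 6 Leydig cell, 8 myoid, 7 macrophage and 6 endothelial markers on brightest probe sets. In these lists 3, 2, 2, 2 and 1 had an unadjusted p under 0.05, with medians of 0.11, 0.010, -0.12, 0.11 and 0.024. On other probe sets, Mylk of the myoid list fell by 0.22 (adjusted p = 0.039, limma) and Clu of the Sertoli cell list by 0.11 (0.048). Among all genes 4.18% fell on at least 1 probe set. Summed signals in control and SCARKO pools were 3911 to 4451 and 4259 to 4575 for spermatogonia, and 2946 to 3320 and 2601 to 3044 for myoid cells. They were 910.3 to 1209 and 970.3 to 1321 for Leydig cells, 382.2 to 525.8 and 445.1 to 536.7 for macrophages, and 213.3 to 277.2 and 233.4 to 279.8 for endothelium. No probe set of a tested marker read 0 on any array. The part of these shifts in the changes of Slc16a3, Ldhb, Slc2a1 and Slc2a3 was not tested.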

How the data were processed

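Whole testis RNA of 5 control and 5 SCARKO pools was measured on Affymetrix arrays. The deposited values are intensities, on a linear scale, of each probe set. MAS5 is named in the submitters' processing notes for 8 arrays, and no tool for pair 5. Its version and settings are not stated in the labels. Precision is limited by the number of arrays. Pools of littermates were made as pairs, per the labels' protocols, and deviated together from their group means with correlations of 0.27, 0.19, 0.19, 0.11 and 0.39 for pairs 1 to 5. Pair 4 did not stand clear of mismatched pools, for which the correlation reached 0.11 as well. P-values between SCARKO and control rest on the spread of the within-pair differences of these pools over the 5 pairs, which limma moderates with an intensity trend.

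Platform gene names were updated through gene identifiers to GRCm38.p6, and 64 array controls were left out. Signals below 1 were raised to 1 before log2. Probe sets were ranked by mean log2 signal and the lowest 40% dropped, which kept 13576 (mean log2 over 4.27, a signal of 19.3). The model in limma 3.58.1 (R 4.3.3) held genotype and littermate pair, with an intensity trend. Tests were two-sided, p-values were adjusted by Benjamini-Hochberg across the 13576, and calls had an adjusted p under 0.05. Counts by gene use the brightest probe set kept. Probe sets whose names end in x_at or s_at can take signal from related transcripts. This holds for the brightest probe sets of Slc2a3, Ldhb, Aldoa, Pgk1, Dlat, Pgd and Tkt. Alternatives were other groups, filters, scalings and models, and leaving out each pair.

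The members and gene lists were chosen with earlier results of these data known. Named genes are all members and, of the other lists, the called genes and up to 2 with the smallest p. Ldhc, Pgk2, Gapdhs and Hif1a were chosen for their role, after values were seen. The gene deleted in SCARKO mice is not reported here.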

Additional observations from a re-analysis of the deposited data

Results flagged for a closer look

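In the 66 groups of 5 pools examined (2 per probe set), 1 held a pool far from the others. Pgam1, a phosphoglycerate mutase gene, had a signal of 663 in the SCARKO pool of pair 2, while the other 4 SCARKO pools read 575.3 to 596.2. The gap was 0.762 of the group's range, above Dixon's critical value of 0.71 for 5 samples, which chance passes in about 1 of 20 groups.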

How the results depend on the processing

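The count of 2 called members was 2 with 16 added before log2, after quantile normalization and after centring arrays on the median. It was 1 with the lowest 60% left out, where Slc16a3 was removed untested and Ldhb stayed called. It was 1 without the littermate block, and 4 with the smallest p over all probe sets of a gene. It was 0 without the filter and 0 without the intensity trend (10 and 9 members at an unadjusted p under 0.05). Leaving out 1 pair gave 0 to 5. Over all probe sets 704 were called, against 38 without the filter, 321 without the trend, 404 without the littermate block, and 304 to 743 when 1 pair was left out. The other pathway genes held 4 calls, against 0 without the filter (18 at an unadjusted p under 0.05) and 3 to 4 when 1 pair was left out. With the lowest 60% left out they held 1, as Gpd1, Gyg and Pgm2 were removed untested and Me1 stayed called. Calls between pairs were 0 to 1 when 1 pair was left out. The causes of the other shifts in these counts were not tested. The median of the set was -0.058 to -0.017 without 1 pair.

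Groups from the descriptions gave 0 called probe sets with limma (611 at an unadjusted p under 0.05), 0 members (3) and 0 other pathway genes (5). Log2 fold changes there were 0.11 for Slc2a1, 0.11 for Slc2a3, -0.18 for Slc2a8, 0.062 for Slc16a1, 0.13 for Slc16a3, 0.088 for Bsg, -0.085 for Hk1, 0.0029 for Hk2, 0.17 for Pfkl, 0.035 for Pfkm, -0.21 for Pfkp, -0.12 for Aldoc, -0.10 for Tpi1, 0.043 for Pgk1, 0.041 for Eno3, 0.078 for Pkm, -0.17 for Ldha, 0.11 for Ldhb, -0.086 for Pdha1, -0.013 for Pdhb, -0.0025 for Dlat, 0.19 for Pdk1, -0.033 for Pgd, 0.13 for Tkt and -0.022 for Taldo1. Second probe sets gave 0.27 for Slc2a1, 0.32 for Slc2a3, and 0.17, 0.16 and 0.17 for Ldhb. Other genes gave 0.71 for Gpd1, -0.12 for Me1, -0.29 for Pgm2, -0.28 for Gyg, 0.099 for Ddit4 and 0.46 for Emb.

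With the titles kept, signs turned for uncalled members near 0. Leaving out 1 pair gave -0.12 to 0.25 for Slc2a8, -0.081 to 0.022 for Bsg, -0.062 to 0.071 for Aldoa, -0.046 to 0.011 for Pgam1, -0.13 to 0.11 for Pdk2 and -0.036 to 0.042 for Taldo1. The mean over probe sets gave -0.014 for Aldoa and 0.018 for Tkt, and quantile normalization gave -9e-05 for Pdk2.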
